A study of Mus musculus with 24 samples.

Results

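The 37 genes of the mouse mitochondrial genome were followed through RNA-seq of mouse embryonic fibroblasts (MEFs) that lack one or more of the 6 nuclear enzymes which methylate lysine 9 of histone H3 (H3K9). A gene was a member when its symbol, paired with the Ensembl identifier of the count table, began with mt-, which took 37 of the 47937 genes in the table. 13 members encode mRNAs, 2 encode rRNAs and 22 encode tRNAs. No measured value entered this rule, although it was chosen with earlier results of these data known.

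The 24 libraries fell into 8 conditions of 3 replicates each. WT was an *Eset1*-conditional MEF clone kept without 4-hydroxytamoxifen (4-OHT), and *E1* was the same clone after 4-OHT, which activates a Cre recombinase that deletes part of *Eset1* (also called *Setdb1*). *E1 S1S2* carried CRISPR/Cas9 mutations of *Suv39h1* and *Suv39h2* and was treated with 4-OHT, and *6KO1* was derived from that clone by mutation of *Eset2* (*Setdb2*), *G9a* (*Ehmt2*) and *Glp* (*Ehmt1*), also with 4-OHT. *E2* was an *Eset2*-mutant clone that still held the conditional *Eset1* allele and was not treated, and *E1E2* was that clone after 4-OHT. *E1E2 G9Gl* added mutations of *G9a* and *Glp* to it, and *6KO2* added mutations of *Suv39h1* and *Suv39h2* to *E1E2 G9Gl*, both after 4-OHT. *E1 S1S2* and *6KO1* are here the first series of clones, and the 4 conditions from *E2* on the second. The treatment text of the labels names 4-OHT for all libraries, so the titles (ctr or oht), the genotype labels and the methods were followed. WT and *E1* were 1 clone, *E2* and *E1E2* another, and each other condition was a single clone of its own, and the clones made with CRISPR/Cas9 received the inducible Cre anew and were kept under puromycin, so that genotype, clone and selection cannot be told apart in comparisons with WT other than that of *E1*. Exposure to 4-OHT and *Eset1* deletion go together in every treated condition, *E1* included, and cannot be told apart. The 3 libraries of a condition were biological replicates of 1 line. All conditions, WT included, descend from the clone with the conditional *Eset1* allele, and all 7 comparisons with WT share the same 3 WT libraries.

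The mitochondrial genome is a small circle read in both directions. Transcription from the heavy-strand promoter gives a long precursor with both rRNAs, most tRNAs and all mRNAs but one, and transcription from the light-strand promoter gives mt-Nd6 and the remaining tRNAs. The precursors are cut at the tRNAs, which punctuate the rRNAs and mRNAs, and the encoded proteins are subunits of respiratory complexes I, III, IV and V, while every factor needed for transcription, RNA processing and translation is imported from nuclear genes. Copies of mitochondrial DNA also lie in nuclear chromosomes, where they are annotated as pseudogenes.

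5 tRNAs on which the results turn are shown first, from GENCODE release M21 on GRCm38, each in the sense of the RNA, with the anticodon in capitals. mt-Tp (tRNA for proline, chrM:15356-15422, minus strand) and mt-Te (glutamate, chrM:14071-14139, minus strand) come from the light-strand promoter. mt-Tl1 (leucine, chrM:2676-2750), mt-Tt (threonine, chrM:15289-15355) and mt-Ti (isoleucine, chrM:3706-3774) lie on the plus strand and come from the heavy-strand promoter. mt-Tt and mt-Tp are neighbours on opposite strands.

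mt-Tp: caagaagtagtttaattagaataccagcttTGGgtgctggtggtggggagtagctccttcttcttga

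mt-Te: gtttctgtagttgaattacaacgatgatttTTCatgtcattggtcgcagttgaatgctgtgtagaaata

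mt-Tl1: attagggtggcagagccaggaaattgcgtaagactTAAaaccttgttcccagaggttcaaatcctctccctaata

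mt-Tt: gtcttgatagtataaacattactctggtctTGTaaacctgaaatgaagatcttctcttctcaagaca

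mt-Ti: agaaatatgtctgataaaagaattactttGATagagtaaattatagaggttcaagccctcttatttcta

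Gene counts per library ranged from 19541909 to 31489070. WT replicate 2 stood apart: over the 18565 genes tested, its mean chi-square per gene was 59.8 against WT replicate 1 and 50.01 against WT replicate 3, whereas the other pairs of replicates gave 2.16 to 22.2. The 5 mRNAs whose levels are read as sums with a nuclear copy are described with the copies. All 21 other tested members were highest in WT replicate 2 among the WT libraries. In normalized counts, that library lay a median of 1.72-fold over the mean of the other 2 (1.51- to 2.65-fold). Results of tests against WT are therefore given with and without it, and the origin of its level was not tested. The counts of the targeted genes include exons outside the mutated part and check the labels only in part. In *6KO1*, normalized counts lay below WT for *Suv39h1* (802 to 877 against 2736 to 2849), *Ehmt2* (1223 to 1386 against 2668 to 3602), *Ehmt1* (1213 to 1394 against 2321 to 2943), *Setdb2* (387 to 426 against 719.6 to 822) and *Setdb1* (989 to 1057 against 1477 to 1612). *Suv39h2* counts did not follow the labels, at 1091 to 1108 in *6KO1* and 1549 to 1850 in *E1 S1S2* against 929 to 1095 in WT, and it was at 475 to 556 in *6KO2* against 355 to 370 in *E1E2 G9Gl*, from which that clone was made. *Setdb1* was at 994 to 1092 in *E1*, whereas its 1187 to 1267 in *E1E2* lay within the 1018 to 1399 of the untreated *E2*. All 8 fibroblast markers reached 10 normalized counts in every WT library, but Thy1 was at 0 to 1.799 in *E1 S1S2*, 0 to 0.879 in *6KO1* and 0 to 4.14 in *6KO2*, and Pdgfra at 1.74 to 5.87 in *6KO1*. Not all markers fell, and Vim was at 61132 to 64527 in *E1 S1S2* against 47567 to 50931 in WT. The fibroblast sums were 167320 to 212910 in WT and 145010 to 160280 in *E1 S1S2*. They were 93180 to 105590 in *6KO1*, 214110 to 232650 in *E1E2 G9Gl* and 139800 to 143430 in *6KO2*. Of 18 markers of other cell types, 4 reached 10 in every WT library, 8 in every *6KO1* library and 10 in every *6KO2* library, with summed levels of 883 to 1006, 1704 to 1864 and 4045 to 4487. The sums of the other 5 conditions lay between 1254 (*E1 S1S2*) and 3559.5 (*E1E2*), all above WT. Tubb3, a neuronal tubulin, made up most of the sum in WT (676 to 826) and *6KO2* (3204 to 3610) but was at 497 to 584 in *6KO1*. There Cd68 (466 to 527 against 88.6 to 104 in WT), Des (309 to 332 against 30.1 to 34.7), Krt14 (233 to 262 against 0 to 2.13) and Cdh5 (56.6 to 72.98 against 0 to 3.197) lay above WT. Other epithelial and endothelial markers in *6KO1* did not: Epcam lay below WT (0 to 3.52 against 7.30 to 14.05), and Krt18 and Kdr overlapped WT. Hba-a1 was at 0 in all libraries, and the part of these markers in the results was not tested. In bulk RNA, fewer cells of a type, fewer mitochondria per cell and less RNA per mitochondrion cannot be told apart.

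All 13 mRNA and both rRNA members passed the filter on low counts, whereas 11 of 22 tRNAs did. 7 tRNAs had 0 counts in each of the 24 libraries (mt-Tq, mt-Ta, mt-Tn, mt-Tc, mt-Ty, mt-Ts1 and mt-Tr), and 6 of these 7 lie on the minus strand. A 0 in a single library, taken alone, allows up to 3 counts, and the 24 libraries together allow fewer per library. mt-Td, mt-Tg, mt-Th and mt-Ts2 had at most 14 counts in any library and were not tested. All 22 tRNA genes are at most 75 bases long, the length of a read, and whether their counts come from cut tRNAs or from uncut precursors was not tested. Whether the counting used strand is not given in the sources used here, so reads of a gene and of an antisense transcript over it cannot be told apart. The levels below are counts per kb of gene, as a percentage of all mitochondrial mRNA counts. In WT the highest mRNA was mt-Co1 (a catalytic subunit of complex IV) at 29.7 ± 1.001% per kb (SD, n = 3), followed by mt-Co2 at 12.6 ± 0.587 and mt-Co3 at 12.3 ± 0.871, both summed with their nuclear copies, and their ranges overlapped. mt-Nd1, a membrane subunit of complex I, stood at 10.7 ± 0.133, mt-Nd4 at 1.81 ± 0.0579, and mt-Nd5 and mt-Nd6 were last among mRNAs without a copy at 1.09 ± 0.172 and 1.001 ± 0.159, again with overlapping ranges. The highest tRNAs were mt-Tp at 1.98 ± 0.132 and mt-Tl1 at 1.69 ± 0.0488, and the lowest one tested was mt-Tl2 at 0.0501 ± 0.0146. mt-Rnr2 and mt-Rnr1, the large and small rRNAs of the mitochondrial ribosome, were at 57.8 ± 4.37 and 14.9 ± 1.91, which is what remained after the rRNA depletion that is part of such library kits.

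As a share of all gene counts, mitochondrial mRNAs were highest in *6KO1* among the mutants, while tRNAs were low in every clone other than WT and *E1*. The mRNA share was 0.815, 1.33 and 0.840% for WT, 0.823, 0.777 and 0.996% for *E1*, 0.843, 0.881 and 0.809% for *E1 S1S2* and 1.06, 1.21 and 1.20% for *6KO1*. It was 0.702, 0.777 and 0.784% for *E2*, 0.750, 0.755 and 0.763% for *E1E2*, 0.775, 0.758 and 0.779% for *E1E2 G9Gl* and 0.779, 0.745 and 0.756% for *6KO2*. WT replicate 2 alone exceeded the *6KO1* libraries, and the other WT libraries lay below all 3 of them. With repeat elements in the denominator *6KO1* replicate 1 (0.828%) lay under *E1* replicate 3 (0.837%). The tRNA share was 0.00465, 0.00753 and 0.00503% for WT, 0.00471, 0.00464 and 0.00564% for *E1*, 0.00312, 0.00342 and 0.00321% for *E1 S1S2* and 0.00342, 0.00338 and 0.00339% for *6KO1*. In the second series it was 0.00268, 0.00293 and 0.00310% for *E2*, 0.00233, 0.00238 and 0.00277% for *E1E2*, 0.00334, 0.00322 and 0.00344% for *E1E2 G9Gl* and 0.00313, 0.00278 and 0.00286% for *6KO2*. The 6 WT and *E1* libraries were all above the 18 others, with no overlap. The rRNA share left after depletion had a mean of 1.84% ± 0.106 in *6KO1* (SD, n = 3), 1.23% ± 0.385 in WT and 0.726% ± 0.0773 in *E1E2*, the lowest of the 8 means. The mRNA shares above hold the counts assigned to mitochondrial genes and leave out those assigned to nearly identical nuclear copies, described next, which were 12.1% to 19.5% of the sum of both. With these copies counted in, the share was 0.937, 1.53 and 1.001% for WT and 1.25, 1.39 and 1.37% for *6KO1*, and the other 18 libraries lay between 0.872% and 1.20%. A summed level over members was given no test.

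**Figure D1:**
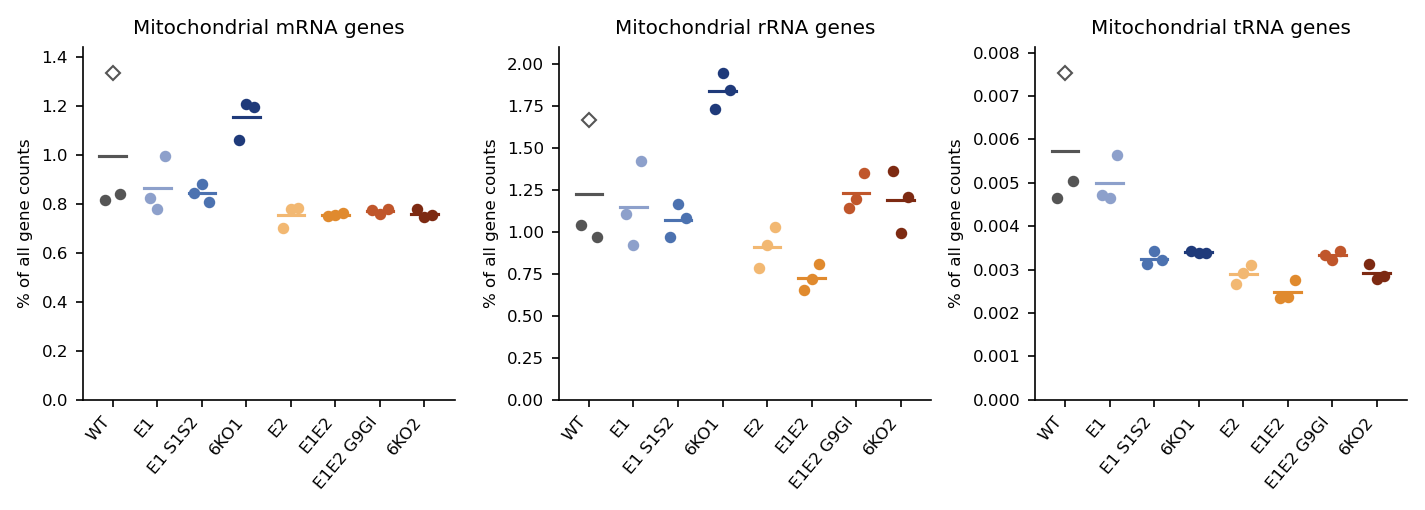
Counts on mitochondrial mRNA, rRNA and tRNA genes as a percentage of all gene counts (vertical axes) in each of the 24 libraries; points are libraries, bars are means of 3, and the open diamond is WT replicate 2. The tRNA share of every WT and *E1* library lies above those of the other 6 conditions, and the mRNA and rRNA shares of *6KO1* exceed those of the other mutants.

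5 mRNA members have a copy on chromosome 1 that leaves the counts of the member and the copy inseparable. The copies lie on the minus strand of chr1:24611535-24616197 (GRCm38), and read in the sense of the gene they keep the mitochondrial order. Gm28661 matched mt-Co2 over 681 of 681 aligned bases, Gm10925 matched mt-Atp6 over 678 of 678, Gm28437 matched mt-Co3 over 783 of 783 and Gm10222 matched mt-Nd4l over 294 of 294. Gm28438 matched mt-Nd3 over 344 of 345 bases. The single difference is T3C, counted from the first base of mt-Nd3, and the first 75 bases, one read length, are shown with that base in capitals.

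mt-Nd3, chrM:9459-9533, plus strand: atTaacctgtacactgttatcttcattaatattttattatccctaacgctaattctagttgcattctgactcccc

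Gm28438, chr1:24613045-24613119, minus strand: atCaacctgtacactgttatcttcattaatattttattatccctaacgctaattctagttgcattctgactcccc

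Of all 75-base windows of mt-Co2, 99.5% also occurred in its copy, and the division of the counts between member and copy varied among replicates of one condition. mt-Co2 took 72.1, 71.4 and 56.96% of its summed count in WT, 63.0, 25.4 and 12.9% in *E1 S1S2* and 23.1, 55.6 and 47.4% in *E2*. mt-Co3, another complex IV subunit, took 34.9, 0 and 20.5% in *E1E2 G9Gl*, with 0 of 20252 counts in replicate 2. The sums varied far less: the coefficient of variation of mt-Co3 over the 3 *E1E2 G9Gl* libraries was 93.6% for the member and 3.22% for the sum, as shares of mitochondrial mRNA counts, and that of mt-Co2 over *E1 S1S2* was 77.4% and 0.255%. mt-Nd4l had counts in 5 of 24 libraries, at most 33, and passed the filter only through these, while its copy held 154 to 389 counts. For these 5 members levels and fold changes are read below from the sums, a choice made after the counts were seen. Counts of called members, out of 26, keep member and copy apart unless stated. How much of a sum is nuclear RNA was not tested. mt-Nd4 has an identical copy over its first 876 bases (Gm28439), but that copy held at most 4 counts. Gm29216 matched mt-Co1 over 486 of 492 aligned bases, shared 27.5% of its 75-base windows and held at most 28 counts. Only these annotated pseudogenes were compared with the members. Whether the bases between them on chromosome 1 also match members, such as mt-Atp8, mt-Tk or other tRNAs, was not tested.

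**Figure D2:**
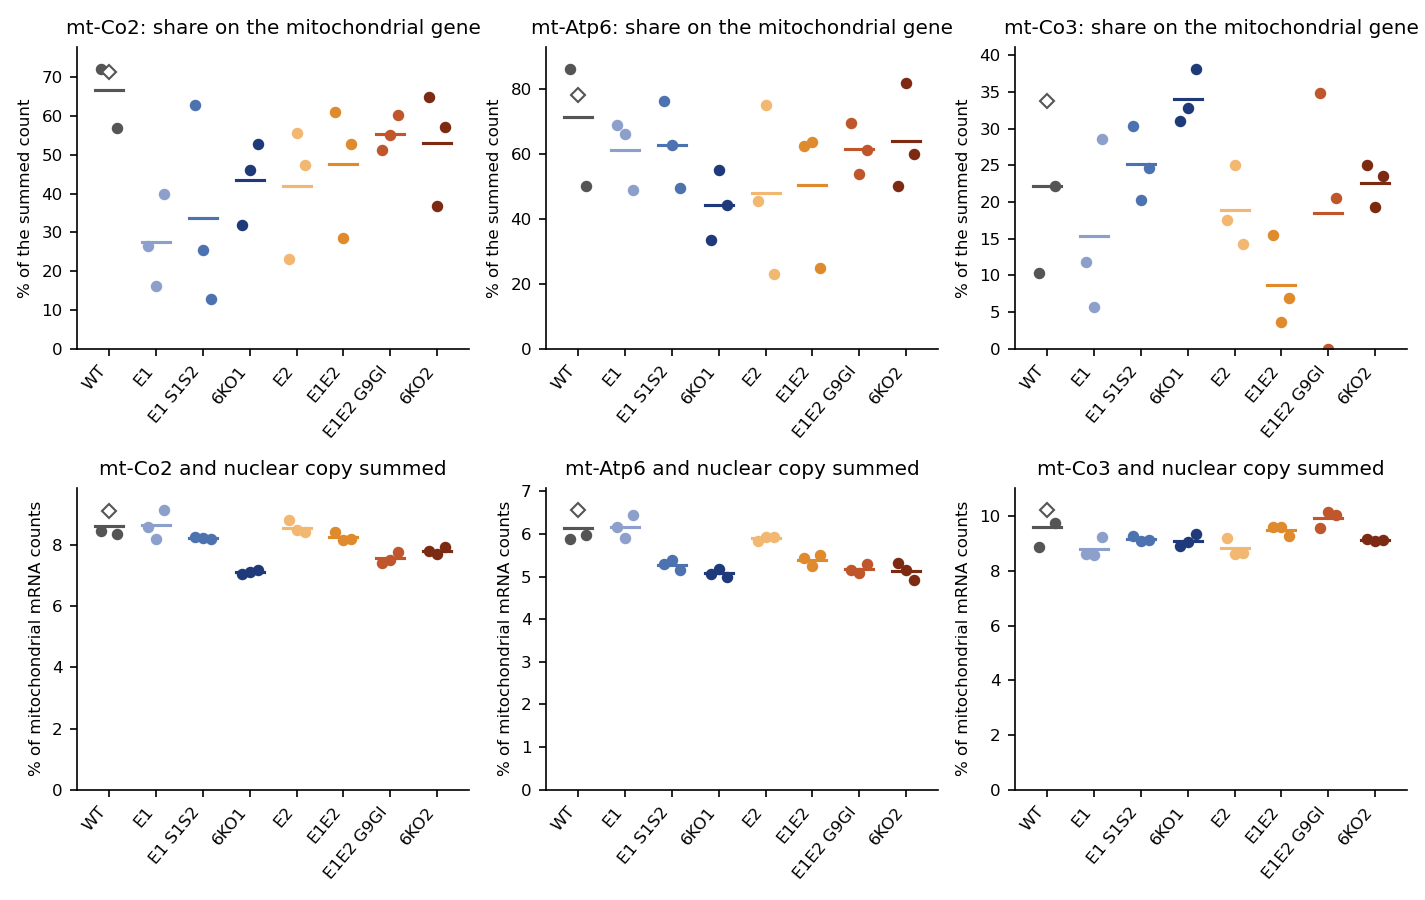
Upper row: the percentage of the summed count of a mitochondrial gene and its nuclear copy that was assigned to the mitochondrial gene, for mt-Co2, mt-Atp6 and mt-Co3; lower row: the sum as a percentage of mitochondrial mRNA counts. Points are libraries, bars are means of 3 and the open diamond is WT replicate 2; the upper values scatter within a condition (for mt-Co3 from 34.9% to 0% in *E1E2 G9Gl*) and the sums do not.

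Each mutant condition was set against WT to ask whether loss of nuclear H3K9 methyltransferases was accompanied by a different level of mitochondrial transcripts. A gene was called at a change of at least 2-fold and an adjusted p of at most 0.01. In *E1*, 0 of 26 tested members were called, higher or lower, against 2.27% of all genes called higher and 1.99% called lower. With no fold minimum it was also 0, against 6.72% and 6.60%, with 2 members at an unadjusted p under 0.05 in edgeR and 0 calls in DESeq2. The shares of all genes at that unadjusted p, or called by DESeq2, are not given here. Such counts, here and below, are therefore not read as a result about the members. In *E1 S1S2*, mt-Nd6 and 4 tRNAs were called lower, 5 of 26 members against 5.11% of genes. In *6KO1*, mt-Nd6 and 5 tRNAs were called lower, 6 of 26 against 10.2%. 5 tRNAs were called lower in *E2* (background 3.21%), 8 tRNAs in *E1E2* (3.22%), and mt-Nd6 with 5 tRNAs in *E1E2 G9Gl* (8.41%). In *6KO2*, 6 members were called lower (background 5.39%): mt-Nd6, 4 tRNAs and mt-Nd3, which is set aside because of its copy. No member was called higher at 2-fold in any of the 7 comparisons, where 6.65%, 20.6%, 2.90%, 5.51%, 16.8% and 15.3% of genes were called higher in *E1 S1S2* and the 5 conditions named after it, in that order. DESeq2 called 0 higher in these comparisons, and in edgeR 0 for *E1*, 0 for *E1 S1S2*, 4 for *6KO1*, 0 for *E2*, 1 for *E1E2*, 0 for *E1E2 G9Gl* and 0 for *6KO2* were higher at an unadjusted p under 0.05.

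These counts rest in large part on WT replicate 2. Without it, members called lower numbered 0 for *E1* (background 2.0%), 1 for *E1 S1S2* (4.64%), 1 for *6KO1* (9.0%), 1 for *E2* (2.96%), 4 for *E1E2* (3.06%), 0 for *E1E2 G9Gl* (7.59%) and 3 for *6KO2* (4.96%). The members still called were mt-Tt in *E1 S1S2*, mt-Tp in *6KO1*, mt-Te in *E2*, mt-Tp, mt-Te, mt-Tm and mt-Tw in *E1E2*, and mt-Nd6, mt-Tp and mt-Te in *6KO2*. The median log2 fold change over the 11 tested tRNAs was -0.14 for *E1*, -0.99 for *E1 S1S2*, -0.90 for *6KO1*, -1.06 for *E2*, -1.33 for *E1E2*, -0.91 for *E1E2 G9Gl* and -1.05 for *6KO2*, where the medians over all genes lay between -0.01 and 0.06. Without WT replicate 2 it was 0.17 for *E1*, -0.57 for *E1 S1S2*, -0.60 for *6KO1*, -0.66 for *E2*, -0.83 for *E1E2*, -0.48 for *E1E2 G9Gl* and -0.54 for *6KO2*, with medians over all genes from 0 to 0.07.

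**Figure D3:**
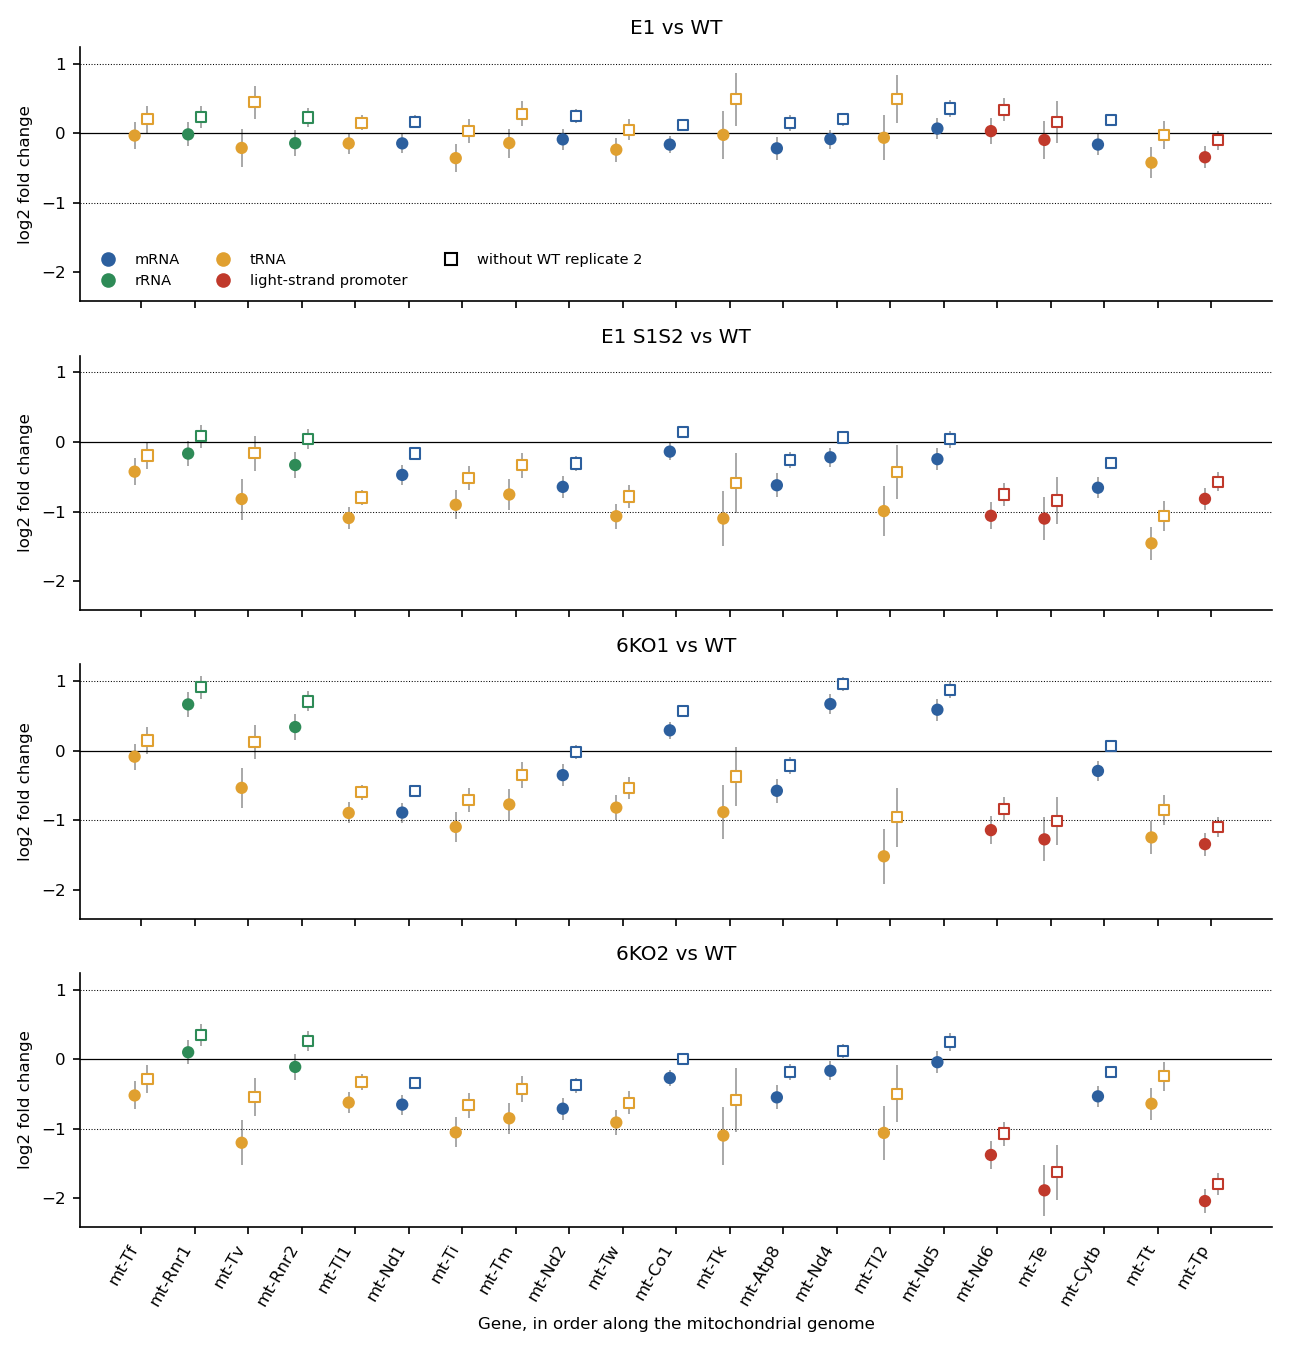
Log2 fold change against WT with its standard error (vertical axis) of the 21 tested members other than the 5 read as sums with a nuclear copy, in their order along the mitochondrial genome, for 4 of the mutant conditions; filled circles use all 3 WT libraries, open squares leave out WT replicate 2, and dotted lines mark 2-fold. The 3 members read from the light-strand promoter (mt-Nd6, mt-Te, mt-Tp) are the lowest in *6KO2* in both fits, and mt-Rnr1, mt-Nd4 and mt-Nd5 are the highest in *6KO1*.

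All 3 measured transcripts of the light-strand promoter were called lower in *6KO1*, *E1E2 G9Gl* and *6KO2*, where 10.2%, 8.41% and 5.39% of all genes were. Without WT replicate 2 all 3 remained called in *6KO2*, mt-Tp alone in *6KO1* and none in *E1E2 G9Gl*. mt-Nd6 encodes a complex I subunit and is the single mRNA from that promoter, mt-Te adjoins it, and mt-Tp is the tRNA nearest the promoter. mt-Nd6 had 1442, 2186 and 1118 for WT, 1551, 1462 and 1846 for *E1*, 601, 858 and 822 for *E1 S1S2* and 649, 681 and 823 for *6KO1*, in normalized counts. For mt-Nd6 the second series gave 842, 1072 and 1116 for *E2*, 774, 972 and 841 for *E1E2*, 717, 912 and 720.1 for *E1E2 G9Gl* and 472, 599 and 761 for *6KO2*. The *E1* libraries overlapped those of WT, whereas all 18 libraries of the other 6 conditions lay below the lowest WT library. Against WT, mt-Nd6 had a log2 fold change of 0.03 ± 0.19 (adjusted p = 0.954) for *E1*, -1.06 ± 0.20 (adjusted p = 7.98e-05) for *E1 S1S2*, -1.14 ± 0.20 (adjusted p = 1.65e-05) for *6KO1* and -0.65 ± 0.19 (adjusted p = 0.0106) for *E2*. It was -0.88 ± 0.20 (adjusted p = 8.02e-04) for *E1E2*, -1.02 ± 0.20 (adjusted p = 8.54e-05) for *E1E2 G9Gl* and -1.38 ± 0.20 (adjusted p = 2.76e-06) for *6KO2*. Fitted without WT replicate 2, the values were 0.34 for *E1*, -0.75 for *E1 S1S2*, -0.84 for *6KO1*, -0.34 for *E2*, -0.57 for *E1E2*, -0.71 for *E1E2 G9Gl* and -1.07 for *6KO2*, and those in *E1* and *E2* did not pass an adjusted p of 0.01. The value fell short of 2-fold without *E1 S1S2* replicate 1 (-0.89) and without *E1E2 G9Gl* replicate 1 or 3 (-0.95 and -0.95), and reached it in *E1E2* without WT replicate 3 (-1.08). In *E1E2 G9Gl* mt-Nd6 was also under 2-fold with DESeq2 (-0.98) and with RLE factors (-0.98).

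mt-Tp showed the same direction with more counts behind it than mt-Te. mt-Tp had 322, 524 and 355 for WT, 269.6, 302 and 376 for *E1*, 230.1, 238 and 215 for *E1 S1S2* and 186, 147 and 139.8 for *6KO1*. For mt-Tp the second series gave 151, 182 and 191 for *E2*, 147, 134 and 132 for *E1E2*, 178, 177 and 177 for *E1E2 G9Gl* and 123, 80.0 and 88.4 for *6KO2*. *6KO2* held the 3 lowest libraries, and every library outside WT and *E1* lay below all of theirs. Against WT, mt-Tp had a log2 fold change of -1.34 ± 0.16 (adjusted p = 1.25e-07) for *6KO1*, -1.20 ± 0.16 (adjusted p = 4.49e-06) for *E2* and -1.54 ± 0.17 (adjusted p = 1.04e-07) for *E1E2*, and -1.18 ± 0.17 (adjusted p = 1.28e-06) for *E1E2 G9Gl* and -2.04 ± 0.18 (adjusted p = 8.78e-10) for *6KO2*. In *E1 S1S2* it was -0.82 ± 0.16 (adjusted p = 1.39e-04), short of 2-fold. Leaving WT replicate 2 out gave -0.57 for *E1 S1S2*, -1.10 for *6KO1*, -0.95 for *E2*, -1.30 for *E1E2*, -0.93 for *E1E2 G9Gl* and -1.79 for *6KO2*.

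mt-Te had 14.9, 35.6 and 30.1 for WT, 25.4, 24.7 and 26.4 for *E1*, 9.39, 20.8 and 8.09 for *E1 S1S2* and 10.6, 13.1 and 9.78 for *6KO1*. For mt-Te the second series gave 8.33, 7.17 and 5.94 for *E2*, 9.85, 5.54 and 6.20 for *E1E2*, 6.47, 11.6 and 14.2 for *E1E2 G9Gl* and 7.24, 8.002 and 6.63 for *6KO2*, on at most 39 counts in a library. Its WT libraries overlapped those of *E1 S1S2* and lay above those of the other 5 conditions outside *E1*. Against WT, mt-Te had a log2 fold change of -1.10 ± 0.31 (adjusted p = 0.0043) for *E1 S1S2*, -1.28 ± 0.32 (adjusted p = 9.92e-04) for *6KO1* and -1.91 ± 0.36 (adjusted p = 2.17e-04) for *E2*, and -1.89 ± 0.36 (adjusted p = 1.61e-04) for *E1E2*, -1.36 ± 0.34 (adjusted p = 0.00125) for *E1E2 G9Gl* and -1.89 ± 0.36 (adjusted p = 9.55e-05) for *6KO2*. When WT replicate 2 was left out, the values were -0.84 for *E1 S1S2*, -1.01 for *6KO1*, -1.65 for *E2*, -1.63 for *E1E2*, -1.10 for *E1E2 G9Gl* and -1.62 for *6KO2*, and the call was lost in *E1 S1S2*, *6KO1* and *E1E2 G9Gl*. It was also lost in *E1 S1S2* without WT replicate 3 (-1.02), *E1 S1S2* replicate 1 (-0.88) or replicate 3 (-0.85), and in *E1E2 G9Gl* without its replicate 1 (-1.08). With only the compared libraries in the fit the mt-Te call was lost in *E1 S1S2*, *6KO1*, *E2*, *E1E2* and *E1E2 G9Gl*. With DESeq2 it was lost in *E1 S1S2*. The other 6 tRNAs of the minus strand had no counts and cannot be compared.

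**Figure D4:**
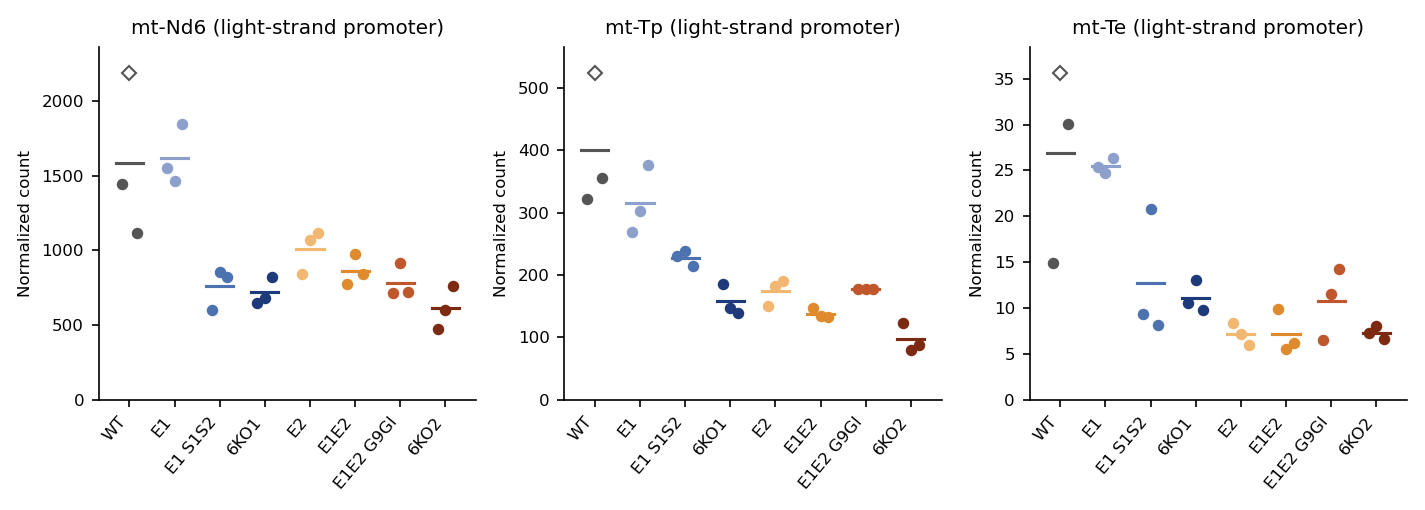
Normalized counts (vertical axes) of the 3 measured transcripts of the light-strand promoter in the 24 libraries; points are libraries, bars are means of 3 and the open diamond is WT replicate 2. For mt-Nd6 and mt-Tp, every library outside WT and *E1* lies below the lowest WT library.

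Among tRNAs of the heavy-strand promoter, mt-Tl1 and mt-Tw were called lower in *E1 S1S2*, *E2* and *E1E2*, and mt-Tt in *E1 S1S2* and *6KO1*. mt-Tl1, which follows mt-Rnr2 and precedes mt-Nd1, had 312, 529 and 320.1 for WT, 320.4, 331 and 402 for *E1*, 184, 192 and 170.0 for *E1 S1S2* and 197, 218 and 211 for *6KO1*. For mt-Tl1 the second series gave 189, 169 and 203 for *E2*, 164, 163 and 202 for *E1E2*, 252, 204 and 237 for *E1E2 G9Gl* and 267, 254 and 235 for *6KO2*. No library outside WT and *E1* reached the lowest WT library. Against WT, mt-Tl1 had a log2 fold change of -1.09 ± 0.15 (adjusted p = 2.36e-06) for *E1 S1S2*, -1.06 ± 0.16 (adjusted p = 1.08e-05) for *E2* and -1.14 ± 0.16 (adjusted p = 2.62e-06) for *E1E2*. The values of -0.90 for *6KO1*, -0.75 for *E1E2 G9Gl* and -0.62 for *6KO2* stayed under 2-fold, as did that in *E2* without *E2* replicate 2 (-0.99). Without WT replicate 2 none reached 2-fold (-0.80 for *E1 S1S2*, -0.60 for *6KO1*, -0.76 for *E2*, -0.84 for *E1E2*, -0.45 for *E1E2 G9Gl* and -0.33 for *6KO2*).

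mt-Tt had 121, 195 and 82.3 for WT, 105, 81.9 and 112 for *E1*, 48.5, 48.0 and 49.5 for *E1 S1S2* and 57.1, 53.1 and 58.7 for *6KO1*. For mt-Tt the second series gave 69.0, 78.0 and 80.8 for *E2*, 58.1, 71.97 and 80.6 for *E1E2*, 75.5, 87.9 and 76.4 for *E1E2 G9Gl* and 61.0, 78.9 and 118 for *6KO2*. The *E1 S1S2*, *6KO1*, *E2* and *E1E2* libraries lay below all 3 WT libraries, and those of *6KO2* and *E1E2 G9Gl* overlapped them. Against WT, mt-Tt had a log2 fold change of -1.46 ± 0.24 (adjusted p = 2.18e-05) for *E1 S1S2* and -1.25 ± 0.24 (adjusted p = 6.01e-05) for *6KO1*, and -1.06 for *E1 S1S2* and -0.85 for *6KO1* without WT replicate 2. mt-Tw, the tRNA for tryptophan, had 135, 252 and 172 for WT, 152, 154 and 171 for *E1*, 79.8, 89.7 and 98.9 for *E1 S1S2* and 101, 112 and 105 for *6KO1*. For mt-Tw the second series gave 96.4, 80.7 and 90.3 for *E2*, 54.2, 58.7 and 94.1 for *E1E2*, 113, 120.2 and 132 for *E1E2 G9Gl* and 109, 94.9 and 95.0 for *6KO2*. All libraries outside WT and *E1* lay below the lowest WT library. Against WT, mt-Tw had a log2 fold change of -1.07 ± 0.18 (adjusted p = 2.72e-05) for *E1 S1S2*, -1.08 ± 0.18 (adjusted p = 7.08e-05) for *E2* and -1.44 ± 0.19 (adjusted p = 1.63e-06) for *E1E2*, and without WT replicate 2 -0.78 for *E1 S1S2*, -0.79 for *E2* and -1.15 for *E1E2*. Without *E1 S1S2* replicate 1 it was -0.96 in that clone. The mt-Tw call in *E2* was lost with only the compared libraries in the fit.

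mt-Ti had 99.1, 202 and 112 for WT, 105, 97.7 and 121 for *E1*, 74.4, 67.9 and 80.0 for *E1 S1S2* and 61.5, 62.7 and 70.4 for *6KO1*. For mt-Ti the second series gave 51.2, 89.7 and 79.6 for *E2*, 52.2, 63.1 and 63.1 for *E1E2*, 70.1, 60.1 and 77.7 for *E1E2 G9Gl* and 77.6, 60.6 and 61.9 for *6KO2*. The WT libraries lay above those of all conditions except *E1*, which overlapped them. Against WT, mt-Ti had a log2 fold change of -1.10 ± 0.21 (adjusted p = 7.04e-05) for *6KO1*, -1.22 ± 0.22 (adjusted p = 8.00e-05) for *E1E2*, -1.003 ± 0.22 (adjusted p = 2.88e-04) for *E1E2 G9Gl* and -1.05 ± 0.22 (adjusted p = 1.96e-04) for *6KO2*, and none of these reached 2-fold without WT replicate 2 (-0.71 for *6KO1*, -0.83 for *E1E2*, -0.61 for *E1E2 G9Gl* and -0.66 for *6KO2*). The call was also lost in *E1E2 G9Gl* without its replicate 2 (-0.91) and in *6KO2* without its replicate 2 (-0.99) or without its replicate 3, by a narrow margin. mt-Tv (valine), which lies between the rRNAs, had 19.2, 49.3 and 18.1 for WT, 23.4, 20.7 and 31.7 for *E1*, 15.7, 16.3 and 18.0 for *E1 S1S2* and 15.8, 22.6 and 22.5 for *6KO1*. For mt-Tv the second series gave 9.52, 14.3 and 10.7 for *E2*, 11.8, 11.1 and 11.4 for *E1E2*, 11.9, 15.0 and 12.95 for *E1E2 G9Gl* and 14.5, 10.3 and 13.3 for *6KO2*. The 12 libraries of the second series, *E2* to *6KO2*, lay below all WT libraries, whereas *6KO1* overlapped them and the *E1 S1S2* libraries, up to 18.0, ended just under the lowest WT library. Against WT, mt-Tv had a log2 fold change of -1.31 ± 0.33 (adjusted p = 0.003) for *E2*, -1.35 ± 0.33 (adjusted p = 0.00186) for *E1E2*, -1.14 ± 0.33 (adjusted p = 0.00391) for *E1E2 G9Gl* and -1.20 ± 0.33 (adjusted p = 0.00274) for *6KO2*, and it passed in none of them without WT replicate 2 (-0.66 for *E2*, -0.70 for *E1E2*, -0.48 for *E1E2 G9Gl* and -0.54 for *6KO2*). The adjusted p also rose above 0.01 without *E2* replicate 1 (-1.20) or 3 (-1.26), without *E1E2 G9Gl* replicate 1 (-1.06) or 3 (-1.11), and without *6KO2* replicate 2 (-1.08). With only the compared libraries in the fit, mt-Tv lost its call in *E2*, *E1E2*, *E1E2 G9Gl* and *6KO2*. mt-Ti lost its call in *E1E2*, *E1E2 G9Gl* and *6KO2* in that fit, and in *E1E2 G9Gl* also with DESeq2 and with RLE factors.

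mt-Tl2, the second tRNA for leucine, had the lowest level per kb of the tested tRNAs, with 9.59, 18.3 and 6.02 for WT, 10.7, 8.88 and 13.2 for *E1*, 7.05, 5.43 and 4.497 for *E1 S1S2* and 4.40, 2.61 and 4.89 for *6KO1*. For mt-Tl2 the second series gave 4.76, 5.38 and 3.56 for *E2*, 4.93, 3.32 and 5.17 for *E1E2*, 5.39, 3.47 and 3.89 for *E1E2 G9Gl* and 7.24, 5.72 and 3.31 for *6KO2*. Its highest WT library was replicate 2, and *E1 S1S2* and *6KO2* overlapped WT. Against WT, mt-Tl2 had a log2 fold change of -1.52 ± 0.39 (adjusted p = 0.00146) for *6KO1*, -1.33 ± 0.40 (adjusted p = 0.00883) for *E1E2* and -1.40 ± 0.41 (adjusted p = 0.00484) for *E1E2 G9Gl*, and it was not called without WT replicate 2 (-0.96 for *6KO1*, -0.77 for *E1E2* and -0.84 for *E1E2 G9Gl*). The call was further lost without *6KO1* replicate 2 (-1.30), without any single *E1E2* library (-1.44 to -1.17), and without *E1E2 G9Gl* replicate 2 (-1.27) or 3 (-1.33). With DESeq2, or with only the compared libraries in the fit, it was lost in *6KO1*, *E1E2* and *E1E2 G9Gl*. Without the filter it was lost in *E1E2* and *E1E2 G9Gl*. mt-Tm (methionine) was called in *E1E2* alone of the 7 comparisons, at -1.45 ± 0.24 (adjusted p = 3.04e-05), and at -1.02 ± 0.20 (adjusted p = 2.01e-04) without WT replicate 2. mt-Tf (phenylalanine) and mt-Tk (lysine) were called in no comparison with WT. The log2 fold changes of mt-Tf lay between -0.54 and -0.03 and those of mt-Tk between -1.10 and -0.02. With WT replicate 2 left out, they lay between -0.31 and 0.20 and between -0.59 and 0.49, so that their direction turned in some conditions.

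mt-Rnr1 was higher in *6KO1* than in WT with and without WT replicate 2, and mt-Rnr2 and mt-Co1 stood highest in *6KO1* among the mutants. The levels of both rRNAs are what depletion left, and the part of depletion in their differences was not tested. mt-Rnr1 had 38957, 56437 and 33395 for WT, 41634, 32791 and 53129 for *E1*, 34821, 40889 and 39088 for *E1 S1S2* and 65928, 72385 and 65793 for *6KO1*. For mt-Rnr1 the second series gave 28015, 35368 and 38000 for *E2*, 22903, 27385 and 29521 for *E1E2*, 38946, 39742 and 47310 for *E1E2 G9Gl* and 53946, 36688 and 47384 for *6KO2*. The *6KO1* libraries lay above all others. Against WT, mt-Rnr1 had a log2 fold change of -0.01 ± 0.17 (adjusted p = 0.992) for *E1*, -0.17 ± 0.17 (adjusted p = 0.444) for *E1 S1S2*, 0.66 ± 0.17 (adjusted p = 0.00163) for *6KO1* and -0.35 ± 0.17 (adjusted p = 0.126) for *E2*. It was -0.69 ± 0.17 (adjusted p = 0.00256) for *E1E2*, -0.03 ± 0.17 (adjusted p = 0.889) for *E1E2 G9Gl* and 0.10 ± 0.17 (adjusted p = 0.632) for *6KO2*. Fitted without WT replicate 2, the values were 0.23 for *E1*, 0.08 for *E1 S1S2*, 0.91 for *6KO1*, -0.10 for *E2*, -0.44 for *E1E2*, 0.22 for *E1E2 G9Gl* and 0.35 for *6KO2*, and that in *E1E2* no longer passed (adjusted p = 0.0285).

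mt-Rnr2 had 225820, 410020 and 211900 for WT, 244110, 200730 and 324060 for *E1*, 203700, 243070 and 227450 for *E1 S1S2* and 335970, 376470 and 359750 for *6KO1*. For mt-Rnr2 the second series gave 177810, 201930 and 227000 for *E2*, 148040, 158110 and 178660 for *E1E2*, 249970, 262470 and 295110 for *E1E2 G9Gl* and 300750, 217330 and 267040 for *6KO2*. WT replicate 2 lay above the *6KO1* libraries and the other WT libraries below them, while all 3 *E1E2* libraries were under WT. Against WT, mt-Rnr2 had a log2 fold change of -0.14 ± 0.19 (adjusted p = 0.663) for *E1*, -0.33 ± 0.19 (adjusted p = 0.145) for *E1 S1S2*, 0.34 ± 0.19 (adjusted p = 0.105) for *6KO1* and -0.48 ± 0.19 (adjusted p = 0.0449) for *E2*. It was -0.81 ± 0.19 (adjusted p = 0.00122) for *E1E2*, -0.07 ± 0.19 (adjusted p = 0.761) for *E1E2 G9Gl* and -0.11 ± 0.19 (adjusted p = 0.619) for *6KO2*, and without WT replicate 2 0.23 for *E1*, 0.04 for *E1 S1S2*, 0.71 for *6KO1*, -0.11 for *E2*, -0.44 for *E1E2*, 0.30 for *E1E2 G9Gl* and 0.26 for *6KO2*. In that fit the *6KO1* value passed an adjusted p of 0.01 and the *E1E2* value did not.

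mt-Co1 had 110640, 188360 and 119440 for WT, 118130, 114540 and 141570 for *E1*, 122740, 132660 and 124830 for *E1 S1S2* and 160070, 178170 and 173940 for *6KO1*. For mt-Co1 the second series gave 117250, 112130 and 120900 for *E2*, 117960, 124240 and 122080 for *E1E2*, 109220, 113000 and 111130 for *E1E2 G9Gl* and 118750, 113390 and 114920 for *6KO2*. Apart from WT replicate 2, the *6KO1* libraries exceeded all others. Against WT, mt-Co1 had a log2 fold change of -0.16 ± 0.12 (adjusted p = 0.402) for *E1*, -0.14 ± 0.12 (adjusted p = 0.356) for *E1 S1S2*, 0.29 ± 0.12 (adjusted p = 0.0348) for *6KO1* and -0.26 ± 0.12 (adjusted p = 0.102) for *E2*. It was -0.20 ± 0.12 (adjusted p = 0.192) for *E1E2*, -0.33 ± 0.12 (adjusted p = 0.0207) for *E1E2 G9Gl* and -0.27 ± 0.12 (adjusted p = 0.0559) for *6KO2*, and without WT replicate 2 0.12 for *E1*, 0.14 for *E1 S1S2*, 0.57 for *6KO1*, 0.02 for *E2*, 0.08 for *E1E2*, -0.05 for *E1E2 G9Gl* and 0.01 for *6KO2*. Of these the *6KO1* value passed, at 0.57 ± 0.07 (adjusted p = 4.83e-08).

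Of the mRNAs of the heavy-strand precursor read singly, mt-Nd4 and mt-Nd5 were higher and mt-Nd1 and mt-Atp8 lower in *6KO1* at an adjusted p of 0.01, none of them by 2-fold. With mt-Rnr1, 3 of 26 members were higher at this rule, a smaller share than the 35.9% of all genes, and 11 of 26 were lower against 30.3%. Without WT replicate 2 these counts were 5 and 7, against 35.6% and 29.6% of genes. mt-Atp8 in *6KO1* no longer passed in that fit (-0.21, adjusted p = 0.107). In *E1E2* the 15 members lower at this rule (16.9% of genes), both rRNAs among them, became 9 in that fit (14.8%). mt-Nd4 and mt-Nd5 encode proton-pumping subunits of complex I, and their log2 fold changes were 0.67 ± 0.14 (adjusted p = 1.40e-04) and 0.59 ± 0.16 (adjusted p = 0.0017), and 0.95 and 0.88 without WT replicate 2. mt-Nd4 had 6114, 10273 and 6329 for WT, 6607, 6521 and 8341 for *E1*, 6104, 6751 and 6657 for *E1 S1S2* and 11627, 12027 and 12497 for *6KO1*. For mt-Nd4 the second series gave 4499, 5715 and 5828 for *E2*, 5258, 5521 and 6127 for *E1E2*, 9020.5, 8152 and 8552 for *E1E2 G9Gl* and 6737, 6698 and 6814 for *6KO2*. All 3 *6KO1* libraries were above all WT libraries. Of the same complex, mt-Nd1 was lower at -0.89 ± 0.14 (adjusted p = 6.91e-06), and at -0.58 ± 0.09 (adjusted p = 4.08e-06) without WT replicate 2. mt-Nd1 had 24855, 43590 and 25910 for WT, 27540, 24027 and 33848 for *E1*, 21724, 24413 and 21838 for *E1 S1S2* and 16368, 17434 and 17079 for *6KO1*. For mt-Nd1 the second series gave 21674, 23923 and 26543 for *E2*, 21062, 21673 and 22188 for *E1E2*, 16341, 17008 and 17118 for *E1E2 G9Gl* and 20752, 19162 and 20101 for *6KO2*. All 3 *6KO1* libraries were below all WT libraries, and those of *E1E2 G9Gl* overlapped those of *6KO1*.

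Shares of the mitochondrial mRNA counts of the same library, with the copies summed, do not depend on library scaling, and in them WT replicate 2 did not have the highest WT value for mt-Nd1, mt-Nd4, mt-Nd5 or mt-Nd6. It did have the highest WT share for the sums of mt-Co3 (10.2%), mt-Co2 (9.11%), mt-Atp6 (6.56%) and mt-Nd3 (1.87%). For mt-Co1, the largest share, it had the lowest WT value. mt-Nd1 made up 10.4, 10.2 and 10.2% for WT, 10.7, 9.94 and 10.6% for *E1*, 9.20, 9.48 and 9.01% for *E1 S1S2* and 5.65, 5.45 and 5.41% for *6KO1*. Of mt-Nd1 the second series had 9.44, 10.3 and 10.7% for *E2*, 9.10, 9.01 and 9.20% for *E1E2*, 7.28, 7.37 and 7.44% for *E1E2 G9Gl* and 8.83, 8.59 and 8.80% for *6KO2*. The *6KO1* libraries were lowest and the *E1E2 G9Gl* libraries next, without overlap with any other condition. mt-Nd4 made up 2.57, 2.41 and 2.49% for WT, 2.57, 2.70 and 2.61% for *E1*, 4.02, 3.76 and 3.96% for *6KO1*, 4.02, 3.53 and 3.72% for *E1E2 G9Gl* and 2.87, 3.004 and 2.98% for *6KO2*. mt-Nd5 made up 2.33, 1.93 and 1.71% for WT, 2.25, 2.501 and 2.25% for *E1*, 3.03, 2.73 and 3.08% for *6KO1*, 3.29, 2.52 and 2.70% for *E1E2 G9Gl* and 2.41, 2.64 and 2.64% for *6KO2*. For both, all libraries of *6KO1*, *E1E2 G9Gl* and *6KO2* lay above all of WT, and for mt-Nd4 so did those of *E1 S1S2* (2.58 to 2.75%) and, by a narrow margin, those of *E1*. mt-Co1 had a mean share of 45.9% ± 1.55 in WT and 55.3% ± 0.305 in *6KO1* (SD, n = 3). mt-Nd6 made up 0.605, 0.512 and 0.441% for WT, 0.603, 0.605 and 0.578% for *E1*, 0.255, 0.333 and 0.339% for *E1 S1S2* and 0.224, 0.213 and 0.261% for *6KO1*. Of mt-Nd6 the second series had 0.367, 0.462 and 0.449% for *E2*, 0.334, 0.404 and 0.349% for *E1E2*, 0.320, 0.396 and 0.313% for *E1E2 G9Gl* and 0.201, 0.269 and 0.333% for *6KO2*. Its *E1 S1S2*, *6KO1*, *E1E2*, *E1E2 G9Gl* and *6KO2* libraries lay below all WT libraries, and those of *E2* overlapped them. With 3 libraries against 3, an exact permutation test of a share could not go below a two-sided p of 0.1, so shares are given without a test.

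mt-Nd3, a small complex I subunit, gave the one sum that was called against WT, lower in *6KO1* and *E1E2 G9Gl*. With Gm28438 it made up 1.73, 1.87 and 1.82% for WT, 1.67, 1.58 and 1.74% for *E1*, 1.28, 1.33 and 1.20% for *E1 S1S2* and 0.683, 0.716 and 0.737% for *6KO1*. Of mt-Nd3 the second series had 1.96, 2.07 and 1.98% for *E2*, 1.90, 1.77 and 1.77% for *E1E2*, 1.05, 1.14 and 1.11% for *E1E2 G9Gl* and 1.29, 1.33 and 1.36% for *6KO2*. *6KO1* was lowest, then *E1E2 G9Gl*, and neither overlapped any other condition. The log2 fold change of the sum against WT was -1.34 ± 0.16 (adjusted p = 9.47e-08) in *6KO1*, -1.15 ± 0.16 (adjusted p = 1.11e-06) in *E1E2 G9Gl* and -0.88 ± 0.16 (adjusted p = 4.66e-05) in *6KO2*. Leaving WT replicate 2 out gave -0.99 ± 0.10 (adjusted p = 6.09e-09), -0.80 ± 0.10 (adjusted p = 2.57e-07) and -0.53 ± 0.10 (adjusted p = 9.53e-05) in the same order, all under 2-fold. The sums of mt-Co2, mt-Atp6 and mt-Co3 (subunits of complexes IV and V) stayed under 2-fold in every comparison with WT, from -0.70 to -0.09, and from -0.31 to 0.29 without WT replicate 2. The sum of mt-Nd4l, another complex I subunit, lay between -0.63 (*E1 S1S2*, adjusted p = 0.00294) and 0.08 (*6KO1*), and between -0.30 and 0.41 without that library. In that fit the *6KO1* sums of mt-Nd4l (0.41, adjusted p = 0.00563) and mt-Co3 (0.29, adjusted p = 0.00875) were higher at an adjusted p of 0.01, and that of mt-Atp6 was lower in *E1E2 G9Gl* (-0.30, adjusted p = 0.00631) and *6KO2* (-0.31, adjusted p = 0.00551). Taken alone, mt-Nd3 was listed at 0 in all 3 *6KO2* libraries and in WT replicate 3, and no fold is given for it. mt-Nd2, mt-Cytb and mt-Atp8 (subunits of complexes I, III and V) were called in no comparison with WT at 2-fold, and in *6KO2* their log2 fold changes were -0.71 ± 0.16, -0.53 ± 0.15 and -0.55 ± 0.17 (SE), and -0.38, -0.18 and -0.18 without WT replicate 2.

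**Figure D5:**
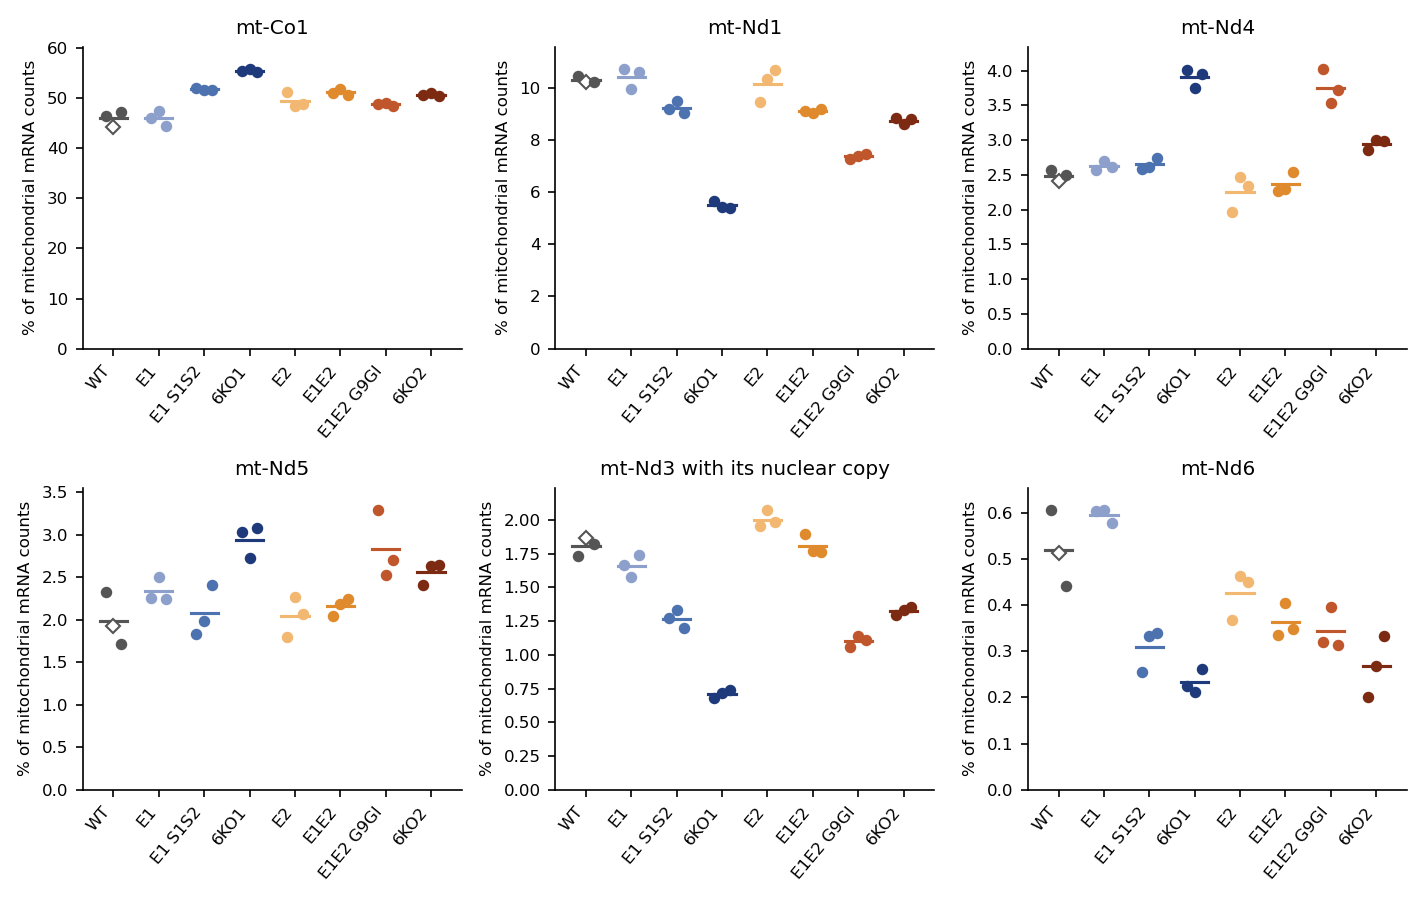
Share of each library's mitochondrial mRNA counts (vertical axes, percent) on mt-Co1, mt-Nd1, mt-Nd4, mt-Nd5, mt-Nd3 with its nuclear copy, and mt-Nd6; points are libraries, bars are means of 3 and the open diamond is WT replicate 2. In *6KO1* the mt-Nd1 share is 5.41% to 5.65% against 10.2% to 10.4% in WT, and for mt-Nd1 WT replicate 2 lies with the other WT libraries. It is the lowest WT library for mt-Co1 and the highest for mt-Nd3 with its copy.

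The steps between clones are not set against WT, although the WT libraries, replicate 2 included, enter the shared estimate of the spread. From *E1* to *E1 S1S2*, which adds the *Suv39h* mutations, mt-Nd6 was called lower at -1.09 ± 0.19 (adjusted p = 7.44e-05) and mt-Tt at -1.04 ± 0.25 (adjusted p = 0.00146), 2 of 26 members against 3.74% of genes. Both values sat at the threshold: mt-Nd6 was under 2-fold without *E1* replicate 3 (-0.99) or *E1 S1S2* replicate 1 (-0.92), and mt-Tt without *E1* replicate 1 (-0.995), *E1* replicate 3 (-0.94) or *E1 S1S2* replicate 2 (-0.998). From *E1 S1S2* to *6KO1*, 0 members were called at 2-fold (21.3% of genes), with 8 at an unadjusted p under 0.05 in edgeR and 0 called in DESeq2, while 5 were higher with no fold minimum, against 30.4% of genes: mt-Nd4 at 0.89 ± 0.14 (adjusted p = 6.53e-06), mt-Nd5 at 0.83 ± 0.16, mt-Rnr1 at 0.83 ± 0.18, mt-Rnr2 at 0.67 ± 0.19 and mt-Co1 at 0.43 ± 0.12. In the same step mt-Tp was lower at -0.53 ± 0.17 (adjusted p = 0.00862). From *E1E2* to *E1E2 G9Gl*, which adds the *G9a* and *Glp* mutations, 0 were called at 2-fold (21.6% of genes), with 9 at an unadjusted p under 0.05 in edgeR and 0 called in DESeq2, and 5 were higher with no fold minimum (28.7% of genes): mt-Tw at 0.82 ± 0.20 (adjusted p = 0.0011), mt-Rnr2 at 0.74 ± 0.19, mt-Rnr1 at 0.66 ± 0.17, mt-Nd4 at 0.61 ± 0.14 and mt-Cytb at 0.47 ± 0.15. In both steps 5 of 26 members is a smaller share than that of all genes, and each step is also a change of clone. Read as sums with their copies, mt-Nd3 and mt-Nd4l passed an adjusted p of 0.01 under 2-fold. From *E1* to *E1 S1S2* they were at -0.55 ± 0.16 (adjusted p = 0.00685) and -0.57 ± 0.17 (adjusted p = 0.00791). From *E1 S1S2* to *6KO1* they were at -0.50 ± 0.16 (adjusted p = 0.00863) and 0.71 ± 0.17 (adjusted p = 7.37e-04). From *E1E2* to *E1E2 G9Gl* the mt-Nd3 sum was at -0.77 ± 0.16 (adjusted p = 1.96e-04).

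From *E1E2 G9Gl* to *6KO2*, 0 of 26 members were called at 2-fold (16.3% of genes), with 4 at an unadjusted p under 0.05 in edgeR and 1, mt-Nd3, called in DESeq2, and mt-Tp was lower at -0.86 ± 0.19 (adjusted p = 4.79e-04). 4-OHT in the *Eset2*-mutant clone (*E1E2* against *E2*) gave 0 calls (2.97% of genes), with 1 at an unadjusted p under 0.05 in edgeR and 0 called in DESeq2. Its difference from the 4-OHT effect in WT, which does rest on the WT libraries, gave 0 as well, against 3.43% of genes, with 1 at an unadjusted p under 0.05 in edgeR and 0 called in DESeq2. It also gave 0 with WT replicate 2 left out, where mt-Tm was at -0.78 (adjusted p = 0.0382) and mt-Rnr2 at -0.55 (adjusted p = 0.0467). Between the lines that lack the same 6 genes, *6KO1* and *6KO2*, 0 members differed at 2-fold (16.9% of genes), with 10 at an unadjusted p under 0.05 in edgeR and 1 called in DESeq2, which was mt-Nd3. With no fold minimum 5 were higher in *6KO1*, against 25% of genes: mt-Nd4 at 0.84 ± 0.14 (adjusted p = 1.68e-05), mt-Tp at 0.69 ± 0.19 (adjusted p = 0.0027), mt-Nd5 at 0.63 ± 0.16, mt-Co1 at 0.56 ± 0.12 and mt-Rnr1 at 0.56 ± 0.17. These lines differ in clone and in the order of mutation.

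The *Suv39h* mutations were added in both series, to *E1* and to *E1E2 G9Gl*, so their effects could be compared. The effects differed for mt-Tl1, by 1.07 ± 0.22 (adjusted p = 2.84e-04) on the log2 scale, and for mt-Tt, by 1.14 ± 0.35 (adjusted p = 0.00934), 2 of 26 members against 7.71% of genes with a difference in that direction, which is the share of the background. The mt-Tl1 difference was under 2-fold without *E1* replicate 3 (0.96), *E1 S1S2* replicate 3 (0.98) or *E1E2 G9Gl* replicate 2 (0.99), and that of mt-Tt missed the call without any one of 10 of the 12 libraries (0.84 to 1.21). For mt-Tl1 the effect was -0.95 ± 0.15 from *E1* to *E1 S1S2* and 0.13 ± 0.16 from *E1E2 G9Gl* to *6KO2* (SE), and for mt-Tt it was -1.04 ± 0.25 and 0.10 ± 0.25. mt-Nd6, mt-Tp and mt-Te gave no called difference, at 0.73 ± 0.28 (adjusted p = 0.0338), -0.39 ± 0.25 (adjusted p = 0.202) and 0.48 ± 0.56 (adjusted p = 0.509). The sum of mt-Nd3 with its copy differed by 0.82 ± 0.22 (adjusted p = 0.00408), short of 2-fold.

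Of the nuclear genes that serve the mitochondrial genome, lists were counted in the same fit, at an adjusted p of 0.01 with no fold minimum. Among 19 factors that process or degrade mitochondrial RNA, such as Elac2, Lrpprc and Supv3l1, 1 was lower for *E1* against 6.60% of all genes, 15 for *E1 S1S2* against 21.9% and 16 for *6KO1* against 30.3%. In the second series 10 were lower for *E2* against 14.4%, 6 for *E1E2* against 16.9%, 16 for *E1E2 G9Gl* against 28.3% and 12 for *6KO2* against 25%. Without WT replicate 2 these 7 counts were 1, 14, 14, 7, 5, 16 and 10, against 6.93%, 19.9%, 29.6%, 12.2%, 14.8%, 27.2% and 23.9% of all genes. The median log2 fold change of that list was -0.63 in *6KO1* and -0.68 in *E1E2 G9Gl* (-0.55 and -0.51 without WT replicate 2), with 0.06 and 0.01 over all genes. Of 82 proteins of the mitochondrial ribosome, 1 was lower for *E1*, 34 for *E1 S1S2*, 50 for *6KO1*, 21 for *E2*, 20 for *E1E2*, 50 for *E1E2 G9Gl* and 40 for *6KO2*, against the same percentages of all genes in turn. Of these proteins 3 were higher in each 6-gene mutant against 35.9% in *6KO1* and 29.5% in *6KO2*. Leaving WT replicate 2 out gave 0, 21, 41, 12, 11, 45 and 27 lower, and 8 higher in each 6-gene mutant. The medians of that list were -0.07 in *E1*, -0.40 in *6KO1* and -0.295 in *6KO2*, and 0.09, -0.26 and -0.14 without that library. Of 17 transcription and replication factors, 1 was lower for *E1*, 9 for *E1 S1S2*, 8 for *6KO1*, 8 for *E2*, 7 for *E1E2*, 9 for *E1E2 G9Gl* and 8 for *6KO2*, again against these percentages, and without it 0, 9, 7, 5, 7, 8 and 8. In *6KO1* 2 were higher and in *6KO2* 1, in both fits, against 35.9% and 29.5% of genes. The nuclear subunits of the respiratory chain in *6KO1* are read against the same 35.9% of genes higher and 30.3% lower. Complex I gave 7 higher and 9 lower of 36, both shares under those of all genes. Without WT replicate 2 it gave 13 higher and 6 lower, with the median going from -0.03 to 0.17. Complex V gave 0 higher and 11 lower of 17, and 1 and 9 without that library. Complexes II, III and IV gave 0 higher and 2 lower of 4, 0 higher and 5 lower of 9 and 1 higher and 5 lower of 12, and without it 1 and 1, 1 and 4, and 3 and 5. Esrra, a nuclear receptor that activates genes of mitochondrial metabolism, is 1 of 7 tested regulators of mitochondrial biogenesis and was the single gene of all lists called at 2-fold in both 6-gene mutants, where 20.6% and 15.3% of all genes were called higher. It stood at 2.18 ± 0.09 (adjusted p = 2.51e-16) in *6KO1* and 1.51 ± 0.09 (adjusted p = 5.36e-13) in *6KO2*, and was also called in *E1 S1S2* (1.498), *E1E2* (1.20) and *E1E2 G9Gl* (1.41). In *E1* it was at 0.59 ± 0.09 (adjusted p = 2.12e-05). In *E2* no regulator of that list, Esrra included, was called at 2-fold. The Esrra values without WT replicate 2 were 2.12 for *6KO1*, 1.45 for *6KO2* and 0.53 for *E1*. They were 1.44, 1.14 and 1.35 for *E1 S1S2*, *E1E2* and *E1E2 G9Gl*. Chosen after their values were seen, Supv3l1, a helicase of the RNA-degrading complex, stood in *6KO1* at -0.90 ± 0.06 and Elac2, the enzyme that cuts the 3′ ends of tRNAs, at -0.70 ± 0.07 (log2 fold change ± SE), and at -0.93 and -0.75 without that library. Polrmt, the mitochondrial RNA polymerase, was at -0.36 ± 0.09 in *6KO1* and -0.10 ± 0.09 in *6KO2*, and at -0.50 and -0.24 without WT replicate 2, where the *6KO2* value passed (adjusted p = 0.00486).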

How the data were processed

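Mitochondrial transcripts were read from RNA-seq of 24 libraries of mouse embryonic fibroblast lines, 8 conditions of 3. Per the study's methods, stranded libraries of total RNA were made with a TruSeq Gold kit and sequenced as paired reads of 75 bases. That such kits remove cytoplasmic and mitochondrial rRNA is background knowledge and is not stated there. The authors trimmed reads with cutadapt 1.8.1, aligned them to GRCm38 with STAR 2.5.2b and counted genes and repeats with TEtranscripts; the annotation release and the strand setting are not given in the sources used here. The deposited values are raw whole-number counts per gene or repeat, with no normalization. TEtranscripts may divide reads that fit several places, which bears on members with a nuclear copy. The 1445 repeat elements were kept out of library sizes, 1 row without a gene name (0.002% of counts) was left out, and 0 columns had no sample. Symbols were found for 47224 of 47937 genes. Counts were tested with edgeR 4.0.16 (R 4.3.3; limma 3.58.1): TMM factors, filterByExpr by condition (minimum count 10), a quasi-likelihood fit of the 8 conditions over all 24 libraries, two-sided, Benjamini-Hochberg over 18565 genes. Called genes passed an adjusted p of 0.01 with a minimum 2-fold change; a second rule dropped the fold minimum. The standard error of a log2 fold change is its size over the square root of F. Normalized counts are counts scaled to the mean effective library of 25312496. The fit was tested on simulated data. The members and lists were chosen with earlier results of these data known. Members past the call in a comparison with WT were named (the 10 of largest change where there were more), with mt-Co1, mt-Nd6, mt-Rnr1 and mt-Rnr2 whatever their value; per-library values were given for those 4 and for members called in at least 2 comparisons with WT, and of each nuclear list at most 4 genes called in both *6KO1* and *6KO2*. mt-Nd1, mt-Nd2, mt-Nd4, mt-Nd5, mt-Cytb, mt-Atp8, mt-Tf, mt-Tk and the sums with nuclear copies were added after their values were seen. Sequences are from GENCODE release M21 transcripts on GRCm38. Alternatives were DESeq2 1.42.0, RLE factors, factors without the mitochondrial genes, no filter, only the compared libraries, the replicate number as a block, no fold minimum, other denominators of the shares, each library left out, and, added after seeing the data, members summed with their nuclear copies.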

Additional observations from a re-analysis of the deposited data

Results flagged for a closer look

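The effect of adding the *Suv39h* mutations differed between its 2 backgrounds for mt-Tl1 and mt-Tt, by a test of the difference itself (an interaction term in edgeR). The difference on the log2 scale, *E1E2 G9Gl* background minus *E1* background, was 1.07 for mt-Tl1 and 1.14 for mt-Tt, and these 2 of 26 members compare with 7.71% of all genes, the same share. In the *E1* background both tRNAs were lower after the mutations, with normalized counts of mt-Tl1 going from 320.4, 331 and 402 to 184, 192 and 170.0, without overlap. In the *E1E2 G9Gl* background they were 252, 204 and 237 before and 267, 254 and 235 after, with overlap. With RLE factors and with the replicate block mt-Tt no longer passed, leaving 1 of the 2 tRNAs, and without *E1* replicate 3 neither passed. mt-Tl1 was also lost without *E1 S1S2* replicate 3 or *E1E2 G9Gl* replicate 2, and mt-Tt without any one of 10 of the 12 libraries.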

How the results depend on the processing

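The members, the lists and the thresholds of the processing alternatives are those given under the methods, and conditions are against WT unless another is named. Where the share of all genes called under a setting is not given above, the counts show only how far the member calls moved. Leaving the mitochondrial genes out of the library sizes and factors changed none of the 41 counts of called members and none of the 63 named values' direction or side of the threshold. With DESeq2 the counts that moved by over 1.5 times were mRNA lower 0 for *E1E2 G9Gl*, 1 for *6KO2* against *E1E2 G9Gl* and 1 for the *Suv39h* difference, tRNA lower 3 for *E1E2 G9Gl*, and mRNA higher 1 for *6KO1* against *6KO2*. With edgeR's RLE factors they were mRNA lower 0 for *E1E2 G9Gl*, and tRNA higher 1 for the *Suv39h* difference. With only the compared libraries in the fit, which leaves fewer samples to estimate the spread, they were tRNA lower 3 for *6KO1*, 2 for *E2*, 4 for *E1E2*, 1 for *E1E2 G9Gl* and 2 for *6KO2*, mRNA lower 1 for *6KO2*, 1 for *E1E2 G9Gl* against *E1E2*, 1 for *6KO2* against *E1E2 G9Gl* and 1 for the *Suv39h* difference, and mRNA higher 2 for *6KO1* against *6KO2*. Without the filter they were mRNA lower 2 for *E1*, 2 for *E1 S1S2*, 3 for *6KO1*, 3 for *E2*, 3 for *E1E2*, 2 for *E1E2 G9Gl*, 1 for *E1E2* against *E2*, 1 for *6KO1* against *E1 S1S2*, 1 for *E1E2 G9Gl* against *E1E2*, 1 for *6KO2* against *E1E2 G9Gl* and 1 for the *Suv39h* difference, and mRNA higher 1 for *E1 S1S2*, 1 for *6KO1*, 1 for *E1E2*, 1 for *6KO2*, 1 for *E1E2* against *E2*, 1 for *E1 S1S2* against *E1*, 1 for *E1E2 G9Gl* against *E1E2*, 1 for *6KO2* against *E1E2 G9Gl*, 2 for *6KO1* against *6KO2* and 2 for the 4-OHT difference, and the cause of each move was not tested. With no fold minimum they were mRNA lower 5 for *E1 S1S2*, 3 for *6KO1*, 3 for *E2*, 4 for *E1E2*, 4 for *E1E2 G9Gl*, 6 for *6KO2* and 3 for *E1 S1S2* against *E1*, tRNA lower 7 for *E1 S1S2*, 8 for *6KO1*, 8 for *E2*, 9 for *E1E2 G9Gl*, 7 for *6KO2*, 3 for *E1 S1S2* against *E1*, 1 for *6KO1* against *E1 S1S2* and 1 for *6KO2* against *E1E2 G9Gl*, mRNA higher 2 for *6KO1*, 3 for *6KO1* against *E1 S1S2*, 2 for *E1E2 G9Gl* against *E1E2* and 3 for *6KO1* against *6KO2*, rRNA higher 1 for *6KO1*, 2 for *6KO1* against *E1 S1S2*, 2 for *E1E2 G9Gl* against *E1E2* and 1 for *6KO1* against *6KO2*, rRNA lower 2 for *E1E2*, and tRNA higher 1 for *E1E2 G9Gl* against *E1E2* and 1 for *6KO1* against *6KO2*, by construction. With the nuclear copies summed in, an alternative chosen after seeing the data, they were mRNA lower 2 for *6KO1*, 2 for *E1E2 G9Gl* and 1 for *6KO2*.

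Replicate numbers did not pair the libraries: over the 13 comparisons the mean correlation of same-numbered libraries ranged from -0.127 to 0.101, and in none did every pair exceed 0.1. With the replicate block the counts that moved were mRNA lower 1 for *E2* and 1 for *E1E2*, tRNA lower 2 for *E1 S1S2* against *E1*, and tRNA higher 1 for the *Suv39h* difference, and same-numbered libraries correlated best for all 3 numbers in 1 of the 13 comparisons, *E1E2* against *E2*. mt-Tt in the *Suv39h* difference was 1.14 without the block and 1.13 with it, and no longer passed, like mt-Ti in *E1E2 G9Gl* (-0.98) and mt-Tl2 in *E1E2* (-1.32).

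Leaving out each library in turn, members called ranged as follows: mRNA lower 0 to 1 for *E1*, 0 to 2 for *E1 S1S2*, 0 to 4 for *6KO1*, 0 to 1 for *E2*, 0 to 2 for *E1E2*, 0 to 3 for *E1E2 G9Gl*, 1 to 3 for *6KO2* and 0 to 1 for *E1 S1S2* against *E1*, tRNA lower 1 to 7 for *E1 S1S2*, 1 to 7 for *6KO1*, 1 to 9 for *E2*, 4 to 9 for *E1E2*, 0 to 6 for *E1E2 G9Gl*, 2 to 7 for *6KO2*, 0 to 1 for *E1 S1S2* against *E1* and 0 to 1 for *6KO2* against *E1E2 G9Gl*, tRNA higher 0 to 1 for *E1E2 G9Gl* against *E1E2* and 0 to 2 for the *Suv39h* difference. The lowest counts against WT came without WT replicate 2, except that of mRNA members in *E1E2 G9Gl*, which was also 0 without *E1E2 G9Gl* replicate 1 or 3, that of tRNA members in *6KO2*, which was also 2 without *6KO2* replicate 2, and, for mRNA members, those in *E1*, *E2* and *E1E2*, which were 0 without most libraries. The highest came without WT replicate 1 or 3, except that of mRNA members in *E1*, which came without *E1* replicate 3, and in *E2*, where it also came without *E2* replicate 2. Values near 0 changed sign when a library was left out: mt-Rnr1 -0.206 to 0.233 for *E1*, -0.318 to 0.081 for *E1 S1S2*, -0.184 to 0.215 for *E1E2 G9Gl* and -0.052 to 0.347 for *6KO2*, mt-Rnr2 -0.345 to 0.228 for *E1*, -0.500 to 0.038 for *E1 S1S2*, -0.240 to 0.299 for *E1E2 G9Gl* and -0.281 to 0.258 for *6KO2*, mt-Co1 -0.303 to 0.117 for *E1*, -0.280 to 0.140 for *E1 S1S2*, -0.398 to 0.021 for *E2*, -0.342 to 0.078 for *E1E2* and -0.412 to 0.008 for *6KO2*, mt-Nd6 -0.165 to 0.342 for *E1*. mt-Rnr1 in *E1E2 G9Gl* was 0.001 with RLE factors and 0.002 with DESeq2. With repeat elements in the denominator the shares were mRNA 0.867% for WT, 0.728% for *E1*, 0.710% for *E1 S1S2*, 0.904% for *6KO1*, 0.639% for *E2*, 0.640% for *E1E2*, 0.609% for *E1E2 G9Gl* and 0.620% for *6KO2*, rRNA 0.902% for *E1 S1S2*, 1.44% for *6KO1*, 0.772% for *E2*, 0.615% for *E1E2*, 0.972% for *E1E2 G9Gl* and 0.968% for *6KO2*, tRNA 0.00421% for *E1*, 0.00273% for *E1 S1S2*, 0.00266% for *6KO1*, 0.00246% for *E2*, 0.00211% for *E1E2*, 0.00263% for *E1E2 G9Gl* and 0.00238% for *6KO2*. With that denominator the mRNA share of *6KO1* replicate 1 (0.828%) was under that of *E1* replicate 3 (0.837%), so *6KO1* overlapped *E1*. With the mitochondrial rRNAs out of it, the tRNA share of *6KO1* was 0.00346%, and the rRNA share has no value.

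Depth limits the tRNAs most: mt-Tl2, mt-Tk, mt-Te and mt-Tv had at most 20, 20, 39 and 54 counts in a library. For the 7 tRNAs at 0, a single library taken alone allows up to 3 counts, and all libraries together allow fewer per library. rRNA levels are what depletion left. Counts of the 5 members with a nuclear copy depend on how reads that fit both places were assigned. Genotype and clone cannot be told apart, and WT replicate 2 sets much of each comparison with WT.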
